A study of Homo sapiens with 6 samples.

Results

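Integrins and cadherins are the adhesion receptors through which cells hold on to the matrix and to each other, and the binding of DPF3a, SMAD4 and p300 was examined across their genes in 786-O cells, an established clear cell renal cell carcinoma line. The members were the protein-coding genes of the human annotation whose symbol is ITGA or ITGB, or CDH, followed by a number, together with ITGAV, ITGAL, ITGAM, ITGAX, ITGAD, ITGAE and ITGA2B. This rule gave 49 genes of 20033 protein-coding genes, of which 26 encode integrins and 23 encode cadherins. A peak was assigned to a gene when its summit, the position of highest signal, lay in the gene or within 5000 bp upstream of it. By this rule the members held 179 of 51530 DPF3a peaks, 160 of 46367 SMAD4 peaks and 95 of 20380 p300 peaks. The symbol CDH also takes in 5 genes that are not classical cadherins, namely CDH13, CDH16, CDH17, CDH23 and CDH26, so they are described as a group of their own beside the type I and type II cadherins.

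An integrin is a dimer of an alpha and a beta chain that spans the membrane, binds collagen, laminin, fibronectin or ligands on other cells, and joins them inside the cell to actin through adaptors such as talin and vinculin. Classical cadherins bind cadherins on the neighbouring cell in the presence of calcium and are tied to actin by catenins. In epithelia of the kidney these receptors hold cells to the basement membrane and to each other, and a shift from E-cadherin to N-cadherin is a known feature of epithelial cells that turn mesenchymal under TGF-β. SMAD4 is the partner that the receptor-activated SMAD proteins of the TGF-β and BMP pathways share, p300 is a histone acetyltransferase found at active enhancers and promoters, and DPF3a is the short isoform of a subunit of the SWI/SNF remodelling complex.

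Each factor was mapped by chromatin immunoprecipitation and sequencing (ChIP-seq) in 2 replicate samples, 6 in all, and the data hold 1 peak list per factor made from both replicates. DPF3a was precipitated through an HA tag from cells made to overexpress it, after fixation with DSG and formaldehyde, whereas formaldehyde was the only fixative for SMAD4 and p300. It is not stated if the SMAD4 and p300 cells overexpressed DPF3a too, and no untreated group or control library is named. With 1 list per factor no spread between replicates can be given, no test was possible, and the intervals below are 95% Wilson intervals that cover counting error only. The lists hold no expression values, so the identity of the cells could not be checked against markers. Fold enrichment, the read pileup at a summit over the local background with 1 read added to each, was compared within a list and not between lists, because antibody, fixation and depth differ.

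The sequences below come from shared member sites chosen by DPF3a fold enrichment alone, 1 per gene within each kind of sharing. An ITGAM site without p300, with 13.9 in DPF3a, was not printed. The sequences are examples from the top of the DPF3a values and not typical sites, whereas the counts and motif matches described further on rest on all member peaks. Each is a window of 101 bases of hg38 around the DPF3a summit, read on the plus strand from 5′ to 3′, outside exons of the gene. Capitals mark exact matches on either strand to the AP-1 consensus TGACTCA or the TEAD consensus ACATTCC, the only searched motifs that occur in these windows. The first 6 windows are sites that DPF3a, SMAD4 and p300 shared.
CDH22 chr20:46216019-46216119: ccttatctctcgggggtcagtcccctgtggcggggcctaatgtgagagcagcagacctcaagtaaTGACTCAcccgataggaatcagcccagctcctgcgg
CDH23 chr10:71527283-71527383: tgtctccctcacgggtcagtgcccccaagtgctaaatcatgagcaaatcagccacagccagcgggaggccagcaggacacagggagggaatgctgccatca
CDH18 chr5:20276561-20276661: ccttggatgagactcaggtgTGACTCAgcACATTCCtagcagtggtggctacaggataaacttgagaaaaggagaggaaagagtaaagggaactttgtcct
CDH3 chr16:68707852-68707952: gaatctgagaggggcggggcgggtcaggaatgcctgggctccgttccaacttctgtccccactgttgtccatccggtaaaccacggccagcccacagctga
CDH13 chr16:82653996-82654096: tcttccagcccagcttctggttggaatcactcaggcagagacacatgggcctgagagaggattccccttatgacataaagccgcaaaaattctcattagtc
ITGB5 chr3:124860750-124860850: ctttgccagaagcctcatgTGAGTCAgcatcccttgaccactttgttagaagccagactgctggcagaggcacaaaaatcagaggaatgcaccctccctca
The other 4 windows are sites that DPF3a and SMAD4 shared and that touched no p300 peak.
CDH4 chr20:61298207-61298307: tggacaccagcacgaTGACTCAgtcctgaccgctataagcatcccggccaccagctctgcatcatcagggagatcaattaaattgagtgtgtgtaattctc
CDH1 chr16:68790336-68790436: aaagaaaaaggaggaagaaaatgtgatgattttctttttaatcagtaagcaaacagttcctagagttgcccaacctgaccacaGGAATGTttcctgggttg
ITGB3 chr17:47305581-47305681: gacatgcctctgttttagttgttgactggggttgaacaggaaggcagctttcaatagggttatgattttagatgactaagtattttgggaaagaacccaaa
CDH22 chr20:46283482-46283582: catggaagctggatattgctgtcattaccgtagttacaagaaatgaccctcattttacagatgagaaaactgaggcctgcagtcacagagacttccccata
CDH22, CDH18, CDH4 and ITGB5 carried an AP-1 match in these windows, the CDH18 site with a TEAD match 2 bases after it, and the CDH1 window held a TEAD match alone. The windows of CDH23, CDH3, CDH13 and ITGB3 and the other CDH22 window held none of the letters searched.

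DPF3a peaks were found at 43 of the 49 genes (87.8%) and SMAD4 peaks at 41 (83.7%), against 65.8% and 72.3% of all protein-coding genes. p300 peaks were found at 29 of the members (59.2%), against 51.6%. The members are long genes, with a median of 91.3 kb against 27.5 kb for all protein-coding genes, so they were also set beside genes of like length. Of the 14 members under 50 kb, 10 had a DPF3a peak, 13 a SMAD4 peak and 4 a p300 peak, where 55.8%, 65.1% and 41.5% of all genes of that length did. Among the 24 members of 50 to 200 kb the counts were 23, 20 and 19, beside shares of 83.7%, 86.2% and 70% of all genes. Among the 11 members over 200 kb they were 10, 8 and 6, beside 91.7%, 86.8% and 75.2%. Within the length classes the members' shares thus lay partly above and partly below those of other genes, and nothing particular to the members is read from these counts.

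All factors had a peak at 25 members (51%), beside 46.7% of protein-coding genes. DPF3a and SMAD4 without p300 were found at 13 genes, SMAD4 alone at ITGB4, ITGA2B and CDH15, and DPF3a alone at CDH20. CDH9, CDH10, CDH11 and CDH26 had DPF3a and p300 peaks and no SMAD4 peak. The shares of all protein-coding genes with these partial patterns were not computed, and nothing particular to the members is read from them. ITGA8, ITGAX and CDH19 had no peak in any list, as did 24.4% of protein-coding genes.

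**Figure D1:**
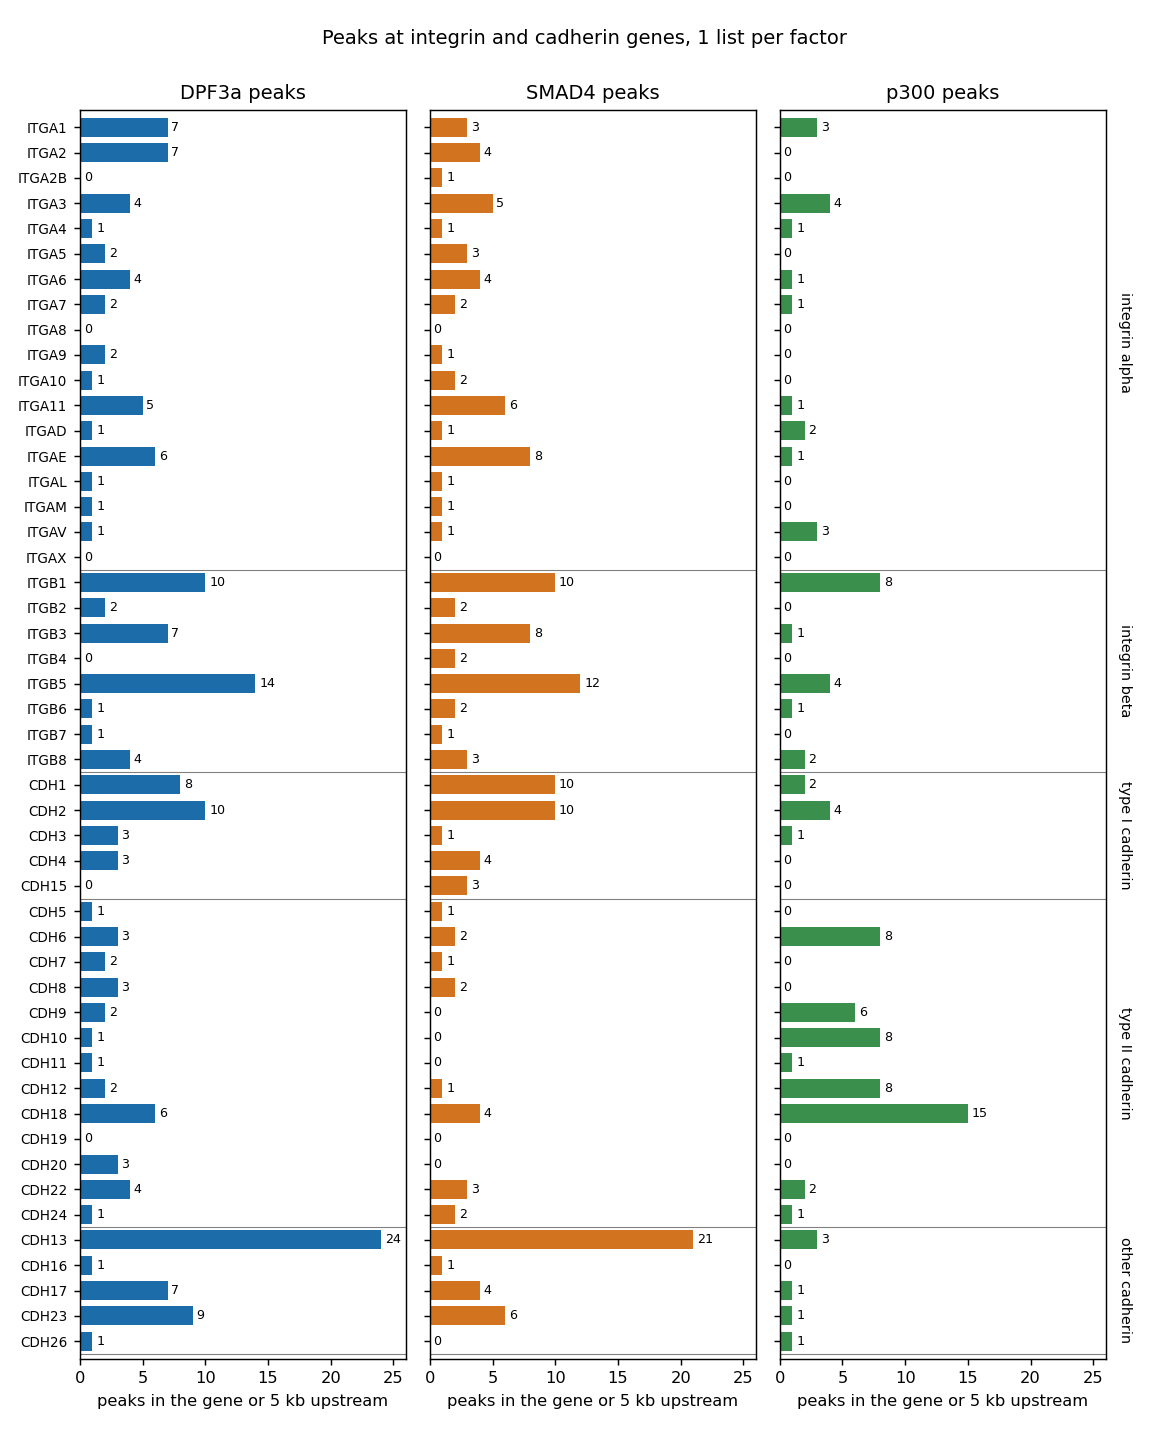
Number of DPF3a, SMAD4 and p300 peaks (x axis) at each of the 49 genes (y axis), ordered by subfamily, with 1 bar per gene and list. CDH13 has the most DPF3a and SMAD4 peaks, 24 and 21, whereas the longest p300 bars belong to CDH18 with 15 and to CDH6, CDH10, CDH12 and ITGB1 with 8 each.

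The peaks were unevenly spread over the genes. CDH13, ITGB5, CDH2, ITGB1 and CDH23 held 67 of the 179 DPF3a peaks (37.4%), and CDH13, ITGB5, CDH1, ITGB1 and CDH2 held 63 of the 160 SMAD4 peaks (39.4%). Integrin genes had more DPF3a and SMAD4 peaks per 100 kb than cadherin genes, but were also shorter, with median lengths of 76.0 and 140 kb. Over all genes of under 50 kb, 50 to 200 kb and over 200 kb, the DPF3a medians were 2.61, 2.17 and 1.49. The SMAD4 medians were 3.77, 1.84 and 1.02. The families were not compared at like length. Per 100 kb of gene and upstream sequence, integrin genes had a median of 3.94 DPF3a peaks and 4.09 SMAD4 peaks, and cadherin genes 1.38 and 1.04, beside 2.25 and 2.65 over all protein-coding genes. The median p300 density was 0.829 for integrin genes, 0.722 for cadherin genes and 0.375 for all genes. At like length the members were not above all genes throughout. For under 50 kb, 50 to 200 kb and over 200 kb, the p300 medians of members were 0, 1.17 and 0.236. Those of all genes were 0, 1.14 and 0.428. With scores over 100 the integrin and cadherin medians of p300 were both 0, and members with a p300 peak fell from 29 to 12. Without the 5 cadherin genes of the short arm of chromosome 5, which are described further on, the cadherin medians were 2.08 for DPF3a, 1.60 for SMAD4 and 0.245 for p300.

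They also differed in where the summits lay. A promoter was taken from 1000 bp upstream to 100 bp downstream of any transcript start of the gene. Promoter peaks of DPF3a were found at 10 of 26 integrin genes (38.5%) and 2 of 23 cadherin genes (8.7%), beside 41.7% of protein-coding genes. For SMAD4 the counts were 15 (57.7%) and 4 (17.4%) beside 57.2%, and for p300 they were 8 (30.8%) and 1 (4.35%) beside 32.9%. The cadherin genes with a DPF3a promoter peak were CDH16 and CDH26, those with a SMAD4 promoter peak CDH2, CDH4, CDH16 and CDH24, and CDH24 alone had a p300 promoter peak. Over all members, 137 of 179 DPF3a summits lay in introns of the canonical transcript, and 81.0% lay more than 2000 bp from any transcript start of their gene.

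ITGB1 encodes the beta chain that pairs with the largest number of alpha chains and is at the centre of binding to collagen, laminin and fibronectin. The gene, ENSG00000150093, lies on the minus strand at chr10:32887273-33005792 and had 10 DPF3a, 10 SMAD4 and 8 p300 peaks. Of protein-coding genes of 50 to 200 kb, 97.9% had fewer DPF3a peaks, 97.8% fewer SMAD4 peaks and 99.3% fewer p300 peaks. The median length of that class is 87.8 kb and ITGB1 spans 119 kb. Such ranks, here and below, are not corrected for length within a class. All factors shared 4 sites at ITGB1. At the canonical promoter the summits of DPF3a, SMAD4 and p300 lay at 32958391, 32958200 and 32958526, with fold enrichments of 6.44, 8.26 and 6.32. A further shared site covered the promoter of the longest transcripts at 33005726, with 8.87, 6.42 and 3.83, and another lay upstream of it at 33010389, with 6.58, 8.58 and 3.45. The fourth lay in an intron 13821 bp downstream of the canonical start, with 7.14, 7.13 and 6.30. The strongest DPF3a site of the gene, with 11.2, lay in an intron 29 bp from coding exon 4 and covered 100% of it, beside a SMAD4 peak with its summit in that exon and 4.20.

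ITGB3, ITGB5, ITGB6 and ITGB8 encode the other beta chains that pair with the alpha chain ITGAV. Several of these dimers bind latent TGF-β, the inactive store of the ligand upstream of SMAD4, and release it. ITGB5 at chr3:124761948-124901418 had the most DPF3a and SMAD4 peaks of any integrin, 14 and 12, and 4 of p300. It spans 139 kb, and 99.7% of protein-coding genes of 50 to 200 kb had fewer DPF3a peaks. Its DPF3a summits ran from the start to 113 kb downstream, and 11 of the 14 touched a peak of another list. The strongest, at 124812920, reached 12.3 in DPF3a and 9.33 in SMAD4 without p300, and the intron site printed above reached 12.1, 8.65 and 3.74 in DPF3a, SMAD4 and p300. Of the 3 sites there that all factors shared, another lay in an intron, with 9.08, 10.2 and 4.41, and the last at the start of the gene was weak in DPF3a, with 3.21.

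ITGB3, the beta chain of the platelet fibrinogen receptor and of the vitronectin receptor, had 7 DPF3a peaks, all in introns, and 6 of them coincided with SMAD4 peaks. The highest, in the window printed above, reached 13.4 in DPF3a and 8.71 in SMAD4. None of the 7 touched a p300 peak, and the only p300 peak of the gene lay near its start with 3.89. The annotation places a readthrough gene over this locus, so the summits cannot be assigned to ITGB3 alone. ITGB8 had 4 DPF3a, 3 SMAD4 and 2 p300 peaks, with a promoter site of all factors at 7.84, 5.67 and 4.08. ITGB6, the partner of ITGAV in epithelia, had 1 DPF3a, 2 SMAD4 and 1 p300 peak, none at its promoter.

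ITGAV itself had 1 DPF3a and 1 SMAD4 peak, both at its promoter together with p300, with 5.32, 8.69 and 5.78. Its beta chains therefore carried most of the sites of these dimers: the 5 genes together had 36 DPF3a and 35 SMAD4 peaks over 504 kb. The remaining chains of the receptors that recognise the RGD sequence of fibronectin and related ligands had few peaks in number, but differ in length. ITGA5, the fibronectin receptor chain, had 2 DPF3a peaks, at its promoter with 6.90 and in an intron with 10.7, and both coincided with SMAD4 peaks. For its length of 24.0 kb ITGA5 was not poor in peaks. It had 3 SMAD4 peaks, and of genes under 50 kb 80.9% had fewer DPF3a peaks and 92.0% fewer SMAD4 peaks. ITGA8, which pairs with ITGB1 and is needed for kidney development, had none over 206 kb, and ITGA2B, the platelet chain, had a SMAD4 peak with 7.92.

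The alpha chains that bind laminin were densely covered, with 6.23 DPF3a, 6.86 SMAD4 and 3.74 p300 peaks per 100 kb over ITGA3, ITGA6 and ITGA7 together. ITGA3, at chr17:50055968-50090481, had 4 DPF3a, 5 SMAD4 and 4 p300 peaks in 34.5 kb. Of genes under 50 kb, whose median length is 13.9 kb, 98% had fewer DPF3a peaks, 98.9% fewer SMAD4 peaks and 99.8% fewer p300 peaks. Its summits were tall in reads and moderate in fold enrichment, because the background around them was high. The DPF3a peak upstream of the gene held 123 reads at its summit with a fold enrichment of 9.23, and was shared with SMAD4 at 5.79 and p300 at 3.29. ITGA6, the partner of ITGB4 in hemidesmosomes and of ITGB1 elsewhere, had a promoter site of all factors with 5.03, 8.22 and 4.68. ITGB4 itself had no DPF3a and no p300 peak, and its 2 SMAD4 peaks had 6.11 and 5.0. The ITGA7 site of all factors lay where BLOC1S1 and RDH5 are also annotated and cannot be assigned to ITGA7 alone.

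The collagen receptors ITGA1, ITGA2, ITGA10 and ITGA11 had 20 DPF3a, 15 SMAD4 and 4 p300 peaks between them. ITGA1 and ITGA2 are neighbours on chromosome 5 with 7 DPF3a peaks each, and ITGA2 had no p300 peak. The p300 peak in the untranslated first exon of ITGA1, at 52788107, had the highest p300 fold enrichment of all members, 7.88, and was shared with DPF3a at 6.80 and SMAD4 at 6.97. PELO is annotated at the same place. In introns, ITGA1 and ITGA2 each had a DPF3a site with a high value, 11.8 and 12.2, and both coincided with SMAD4 peaks of 5.54 and 8.0. These DPF3a summits lay 233 and 245 bp from the nearest coding exon, and the ITGA2 peak covered 16.4% of that exon. In ITGA11, a collagen receptor of fibroblasts, 4 of 5 DPF3a summits fell on SMAD4 peaks, and the highest DPF3a value was 10.8.

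Integrin chains known mainly from leukocytes also carried sites. The DPF3a and SMAD4 summits of ITGAM, the alpha chain of the complement receptor Mac-1, had the highest fold enrichment of the integrin genes in both lists, 13.9 and 12.1. They lay in an intron 22 and 18 bp from coding exon 3, and both peaks covered 100% of that exon, as did peaks at CDH1 described further on. ITGB7, a beta chain of lymphocyte homing receptors, had a site in the first intron with 12.6 and 7.21, and ITGAL, the alpha chain of LFA-1, had an intron site with 11 and 6.32. These 3 sites lacked p300 peaks and each held an AP-1 match in both lists. ITGB2, the beta chain of Mac-1 and LFA-1, had 2 DPF3a sites with 7.82 and 5.69, both coinciding with SMAD4. ITGAX had no peak. ITGAE, which pairs with ITGB7 and binds E-cadherin, had 6 DPF3a and 8 SMAD4 peaks in 86.6 kb, and its SMAD4 summit in the first intron, with 363 reads and a −log10 q of 209.5, had the most reads of any member summit. Its fold enrichment was 9.21 in SMAD4 and 5.95 in the DPF3a peak beside it. ITGA4 and ITGA9, which share ligands such as VCAM-1, had 3 DPF3a peaks over 453 kb together.

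CDH1 and CDH2 encode E-cadherin of epithelial junctions and N-cadherin, the type I cadherin that proximal tubule cells of the kidney also carry. CDH1, at chr16:68737292-68835537, had 8 DPF3a, 10 SMAD4 and 2 p300 peaks, and CDH2, at chr18:27932879-28177946, had 10, 10 and 4. None of the lists had a peak at the CDH1 promoter. The nearest site of all factors lay 4805 bp upstream, with fold enrichments of 10.9 in DPF3a, 11.5 in SMAD4 and 5.14 in p300. In the long second intron, the site printed above reached 13.5 in DPF3a and 9.50 in SMAD4 without p300, and held 127 DPF3a reads at its summit. A further 3 DPF3a summits in that intron, with 7.30, 6.09 and 3.99, also fell on SMAD4 peaks.

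The strongest SMAD4 values of CDH1, and of all members, came from its coding exons. SMAD4 reached 20.2 in exon 6 and 19.0 in exon 12, and another summit with 14.1 lay 28 bp from exon 14. DPF3a had a summit in exon 13 with 9.09, and p300 had a summit in exon 12 with 4.21. Each of these 5 peaks covered 100% of its exon, and the other CDH1 peaks lay more than 2000 bp from any coding exon. Over all members, 7 of 160 SMAD4 summits (4.38%) and 4 of 179 DPF3a summits (2.23%) lay in coding exons more than 2000 bp from a gene start, beside 1.22% and 0.838% of the whole lists. For p300 the shares were 4.21% of member summits and 4.33% of the list. Whether the exon signals at CDH1, ITGAM and ITGB1 come from binding was not tested.

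At CDH2 the DPF3a summits were spread through the introns, from 15 kb to 223 kb downstream of the start. The strongest shared site, at 28115434, had 8.20 in DPF3a, 11.4 in SMAD4 and 5.91 in p300. The promoter held a SMAD4 peak with 4.53 and neither of the other factors. Of the 10 DPF3a summits of CDH2, 8 touched a peak of another list. CDH3, the P-cadherin gene next to CDH1, had a site of all factors 62592 bp downstream of its start with 14.0, 12.7 and 4.34. CDH4, the R-cadherin gene, had 3 DPF3a sites with 14.0, 12.5 and 9.28 over 688 kb and no p300 peak. The first 2 coincided with SMAD4 peaks, and the last only touched one. CDH15, the muscle cadherin, had 3 SMAD4 peaks alone.

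**Figure D2:**
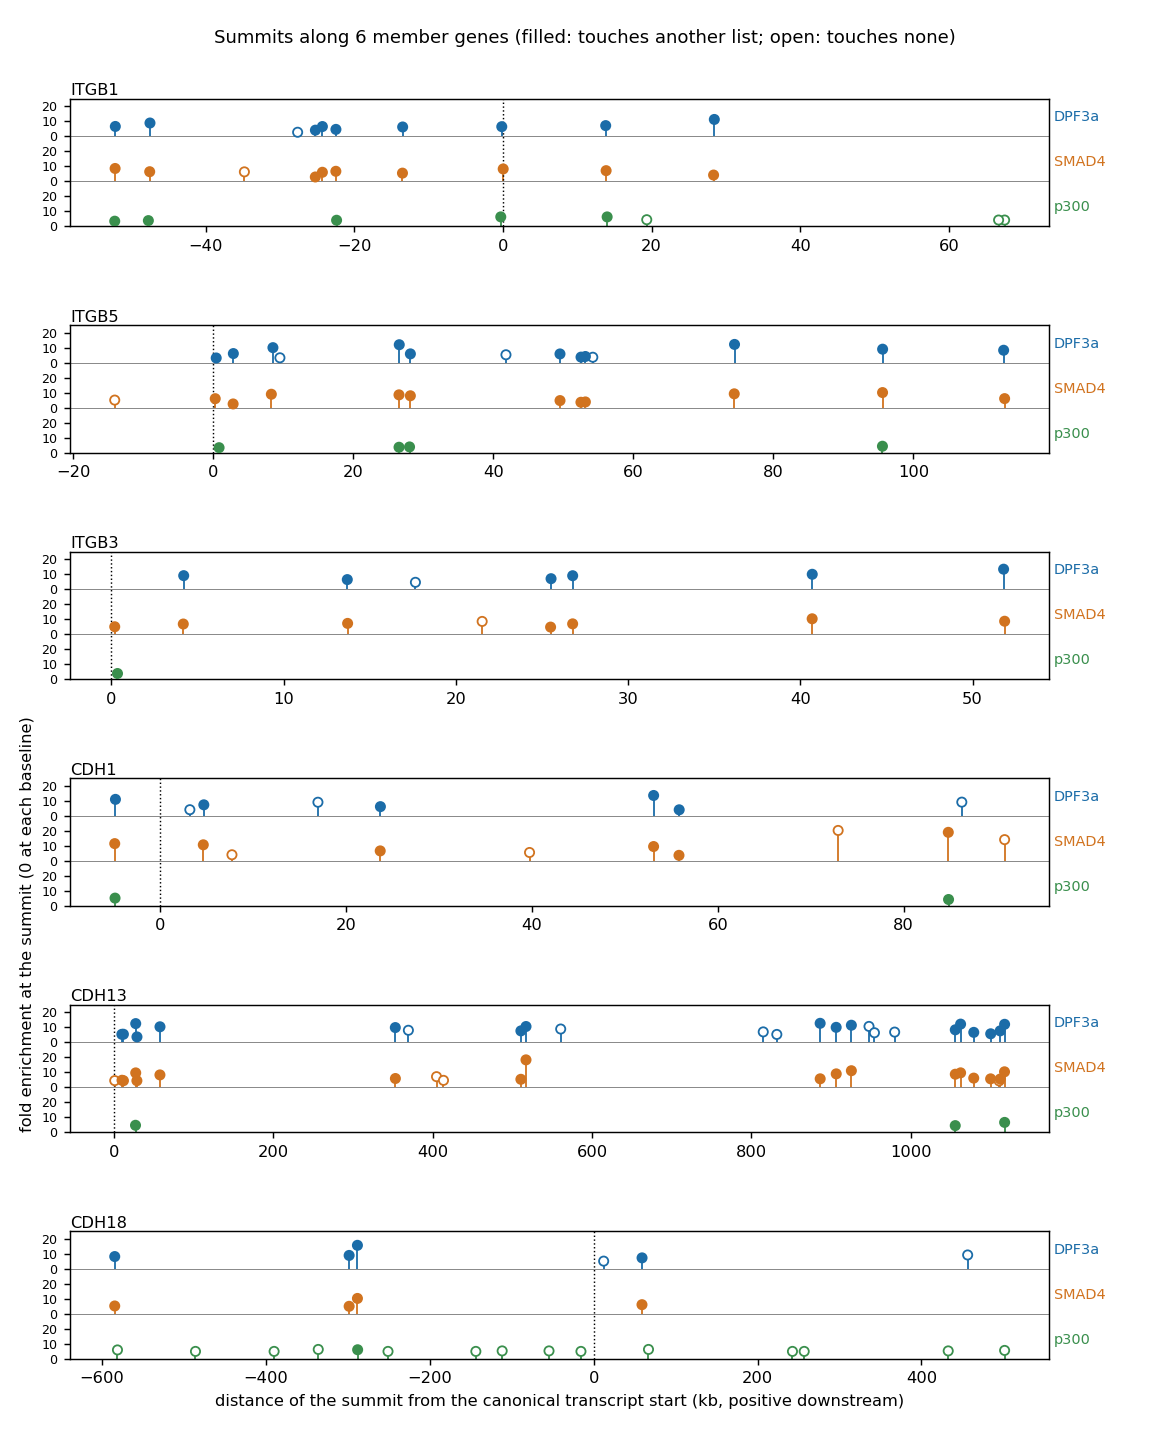
Summits along ITGB1, ITGB5, ITGB3, CDH1, CDH13 and CDH18, with distance from the canonical transcript start in kb on the x axis and fold enrichment on the y axis, each factor on its own baseline. Filled points touch a peak of another list and open points touch none: DPF3a and SMAD4 points stand above each other along ITGB3 and CDH13, whereas 14 of the 15 p300 points of CDH18 are open.

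Type II cadherins were sparsely covered by DPF3a and SMAD4, with medians of 0.814 and 0.360 peaks per 100 kb, and several of their sites had a high fold enrichment. Of the sites that all factors shared, that of CDH22 had the highest DPF3a fold enrichment, 18.4, with 13.5 in SMAD4 and 7.26 in p300, and the gene also had a site of DPF3a and SMAD4 alone with 13.2 and 13.1. The strongest DPF3a summit of all members, with 19.2 and 88 reads, lay in an intron of CDH20 at chr18, position 61529184, and touched neither SMAD4 nor p300. The other 2 DPF3a peaks of CDH20 had 5.99 and 6.25 and were also alone. CDH8 had 2 shared sites, with 13.0 and 12.5 in DPF3a, and CDH7 had a shared site with 12.4. CDH11, the cadherin of mesenchymal cells, had a DPF3a peak in an intron with 11.3 that touched a p300 peak with 5.23 and no SMAD4 peak. CDH5, the endothelial cadherin, had an intron site of DPF3a and SMAD4 with 9.60 and 6.91.

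CDH6, CDH9, CDH10, CDH12 and CDH18 lie on the short arm of chromosome 5, and CDH6 is the kidney cadherin of the proximal tubule. These 5 genes held 45 of the 95 p300 peaks of the members (47.4%), with 15 at CDH18, 8 each at CDH6, CDH10 and CDH12 and 6 at CDH9. They held 14 DPF3a and 7 SMAD4 peaks. These genes were set apart because earlier results of these data had shown many unshared p300 peaks on chromosomes 5, 7 and 8. Their share of such peaks thus describes a group picked for that trait and is not independent evidence. Of the p300 peaks of these 5 genes, 42 of 45 (93.3%) touched no peak of the other lists, against 31.3% of the whole p300 list. At the other cadherins this count was 3 of 17 and at the integrins 10 of 33. The 45 peaks were low, with a median of 15 reads in a list whose lowest peak has 14 reads, and 39 of them had 18 reads or fewer. At 31 of them the local background was the genome-wide level of 2.05 reads. Only 3 had a score over 100, which is 10 times the −log10 q.

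The neighbourhood of these genes also held p300 peaks, and most of them likewise touched no other list, 25 of 30 around CDH18 and 32 of 34 around CDH10. This was not confined to the short arm of chromosome 5. Around ITGB8 on chromosome 7, 22 of 26 p300 peaks within 1 Mb to either side touched no other list. Around most other members such peaks were a smaller part, for example 1 of 27 around CDH1. Within 1 Mb to either side, CDH18, CDH12 and CDH9 had 15, 15 and 28 p300 peaks per Mb, beside 13.6, 7.26 and 24.9 inside the genes. CDH10 and CDH6 had more inside, 50.7 and 59.1 per Mb beside 17 and 18 outside, and 99.3% of genes of 50 to 200 kb had fewer p300 peaks. From 19000000 to 32000000 on chromosome 5, 220 of 240 p300 peaks touched no other list (91.7%), compared with 54 of 106 DPF3a peaks and 6 of 57 SMAD4 peaks. Copy number and the mean signal of this arm are not in the peak lists, and their part in these p300 counts was not tested.

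**Figure D3:**
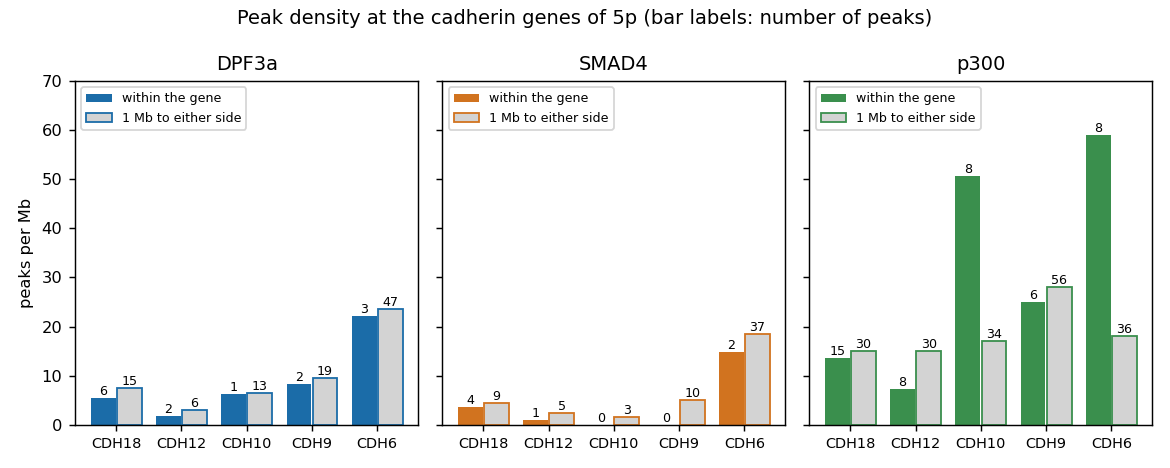
Peaks per Mb (y axis) within CDH18, CDH12, CDH10, CDH9 and CDH6 (coloured bars) and within 1 Mb to either side (grey bars) for each factor, with the number of peaks above each bar. p300 bars reach 50.7 at CDH10 and 59.1 at CDH6, and the flanks of all 5 genes lie between 15 and 28 per Mb.

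A few sites in this group appeared in several lists. At CDH18 the site printed above had 15.6 in DPF3a with 113 reads, 10.2 in SMAD4 and 6.03 in p300, 288 kb upstream of the canonical start and inside a longer transcript. At CDH12, 1046 kb into the gene, DPF3a reached 11.3 and SMAD4 7.12, with p300 at 4.92 and 14 reads. CDH6 had a SMAD4 and a p300 summit near its start, with 5.41 and 6.23, and a DPF3a summit about 1.36 kb downstream of the start, with 4.87. CDH9 and CDH10 had no SMAD4 peak, and their DPF3a summits, with 9.60 and 6.44 at CDH9 and 6.29 at CDH10, touched no other list.

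Cadherins outside the classical group held the gene with the most peaks. CDH13, which encodes a cadherin held at the membrane by a lipid anchor and without the tail that binds catenins, spans 1174 kb at chr16:82626965-83800640 and had 24 DPF3a, 21 SMAD4 and 3 p300 peaks. All were in introns, and 17 of the 24 DPF3a summits touched another list. Among genes over 200 kb, 97.2% had fewer DPF3a peaks and 97.1% fewer SMAD4 peaks, but the median length of that class is 319 kb. Per 100 kb CDH13 had 2.04 DPF3a and 1.78 SMAD4 peaks. The medians of the class were 1.49 and 1.02, and its values over all genes pooled were 1.72 and 1.33. The high rank of CDH13 is thus not corrected for its length. The SMAD4 summit in the fourth intron of CDH13, with 18.3 and 120 reads, was the highest outside CDH1, and DPF3a reached 10.5 there. The sites of all factors had DPF3a values of 12.4, 8.30 and 12.0, the last of them where HSBP1 is also annotated. CDH23, a long cadherin of the inner ear, had 9 DPF3a peaks, and its site of all factors, printed above, had 18.4 in DPF3a, 14.7 in SMAD4 and 7.05 in p300. CDH17, the cadherin of intestinal epithelium, had 7 DPF3a peaks and a site of all factors upstream with 11.4, 6.77 and 5.15. CDH16, known as the kidney-specific cadherin, had a promoter site of DPF3a and SMAD4 with 10.9 and 8.42 and no p300 peak.

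Peaks counted as shared where their overlap made up 0.5 or more of each. By this rule the members' shares were near those of the whole lists for DPF3a and SMAD4. For p300 they were lower over all members, but not outside the short arm of chromosome 5. Of the members' DPF3a peaks, 60.9% were shared with SMAD4 (95% interval 53.6 to 67.7, 109 of 179), beside 59.3% of the whole list. With p300 the share was 15.6%, beside 16.6%, and with both it was 14.5%, beside 15.2%. Of the SMAD4 peaks, 68.1% were shared with DPF3a, beside 65.9%. Of the p300 peaks, 33.7% (25 to 43.7) were shared with SMAD4, beside 50.7% of the list, 29.5% (21.2 to 39.3) with DPF3a, beside 41.9%, and 64.2% (54.2 to 73.1) with neither, beside 44.6%. The genes on the short arm of chromosome 5 described above hold 45 of these 95 p300 peaks. Of the 45, 6.67% were shared with SMAD4 and 2.22% with DPF3a. Of the 33 p300 peaks at integrin genes, 57.6% (40.8 to 72.8) were shared with SMAD4 and 51.5% (35.2 to 67.5) with DPF3a. At the other cadherin genes both shares were 58.8% (36.0 to 78.4) of 17 peaks. The integrin and other cadherin intervals take in the values of the list. The summits of shared DPF3a and SMAD4 peaks lay a median of 38 bp apart (quartiles 14 to 70), beside 49 bp over the whole list, which is a distance within the width of the peaks.

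The 109 DPF3a-SMAD4 sites lay at 35 members (71.4%), beside 54.1% of protein-coding genes, and 79 of the sites at 30 genes touched no p300 peak. These last counts were not set beside the whole list or all genes. By the overlap rule, 46.4% of member DPF3a peaks were shared with SMAD4 alone, beside 44.1% of the list. Lack of p300 is thus not read as particular to the members. The members are longer than most genes, and the share of 71.4% was not set beside genes of like length. Sites of all factors numbered 26 and lay at 16 members (32.7%), beside 29.9%. ITGB1 had 4 of them, and ITGA3, ITGB5 and CDH13 had 3 each. By length, 2 of 14 members under 50 kb, 10 of 24 of middle length and 4 of 11 over 200 kb had such a site, where 23.2%, 42.3% and 44.6% of genes did. The median DPF3a fold enrichment was 8.30 for peaks shared with SMAD4 and 6.37 for those shared with neither factor, and in the whole list these were 7.42 and 5.99. For SMAD4 the medians were 6.86 for peaks shared with DPF3a and 5.21 for those shared with neither. The p300 peaks did not follow this order, with 4.78 for those shared with DPF3a, 4.57 with SMAD4 and 4.92 with neither. A p300 peak of 14 reads, the lowest in the list, at the lowest background of 2.05 reads also has 4.92. Of the 61 p300 peaks shared with neither, 42 lay at the 5 cadherin genes of the short arm of chromosome 5. The p300 medians are therefore not read as an order of strength. Over all member peaks, the median was 7.25 in DPF3a beside 6.70 in the list, 6.13 beside 6.30 in SMAD4, and 4.92 in both for p300. Integrin and cadherin summits had median DPF3a fold enrichments of 6.67 and 8.13, with quartiles that overlapped. In reads at the summit the order was the reverse, with medians of 38 and 28, and the median local backgrounds were 4.1 and 2.6 reads. The families are therefore not ranked by strength.

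**Figure D4:**
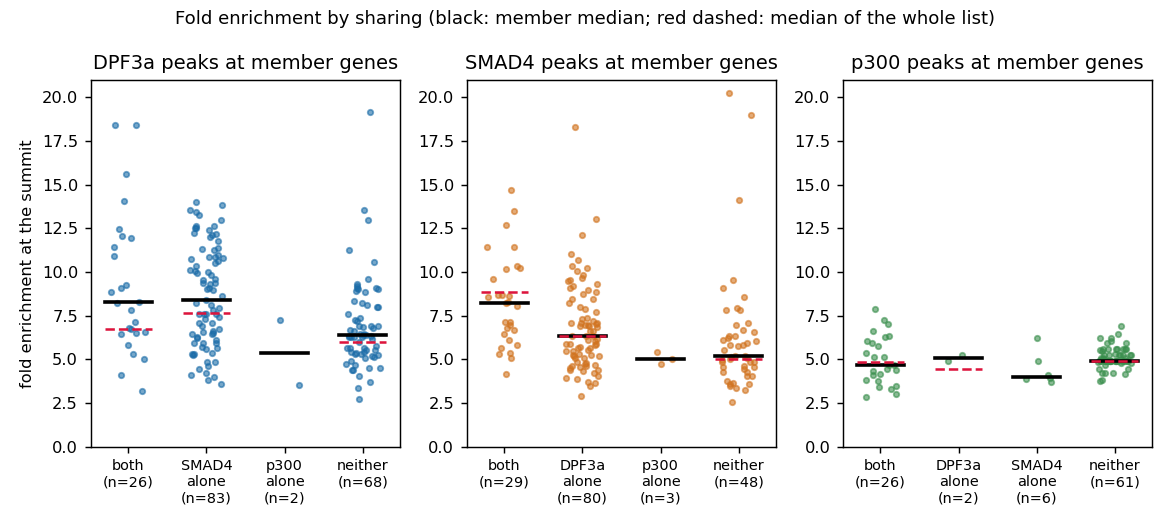
Fold enrichment (y axis) of every member peak of DPF3a, SMAD4 and p300, split by which other lists shared it (x axis, with the number of peaks), where black bars are member medians and red dashed bars medians of the whole list, given for 3 of the 4 classes. DPF3a peaks shared with SMAD4 or with both factors have higher medians than those shared with neither, 6.37, and the 2 highest SMAD4 points, 20.2 and 19.0, are shared with neither.

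Short consensus motifs were searched as exact letters on both strands within 50 bp of each summit: TGACTCA for AP-1, TGTGGTT for RUNX, ACATTCC for TEAD and CAGACA for the SMAD-binding element. No motif contains another. An AP-1 match lay in 57 of 179 DPF3a windows (31.8%, 95% interval 25.5 to 39.0), beside 22% of the whole DPF3a list and 0.559% in flanking windows 500 bp away. For SMAD4 the share was 20.6% (15.1 to 27.5), beside 15%, and for p300 it was 3.16%, beside 3.61%. Among summits over 2000 bp from every transcript start, which were 78.8% of the members' DPF3a summits and 75.9% of the list, the AP-1 shares were 31.9% (24.8 to 40) and 25.7%, so that the interval of the members takes in the value of the list. The matches were unevenly divided among the genes. ITGAE had them at 5 of 6 DPF3a summits, CDH18 at 4 of 6, ITGA6 at 3 of 4, ITGA11 at 3 of 5 and CDH13 at 8 of 24, whereas CDH2 had none at 10, ITGA2 none at 7 and ITGB1 1 at 10. DPF3a peaks shared with SMAD4 alone had a match in 36.1%, those shared with neither in 30.9% and those shared with both in 23.1%, and in the whole list these shares were 24.7%, 22.6% and 14.0%.

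The other motifs were rarer. RUNX letters were found at 5.03% of member DPF3a summits and 9.38% of SMAD4 summits, beside 7.04% and 6.02% of the lists. TEAD letters were found at 6.15% and 3.75%, beside 4.56% and 3.18%. The SMAD letters were found at 11.2% of DPF3a and 10% of SMAD4 summits, beside 7.71% and 10.2%, and 5.03% and 6.25% of the flanks held them too. A match is a description of the letters at a summit and does not show which factor was bound.

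**Figure D5:**
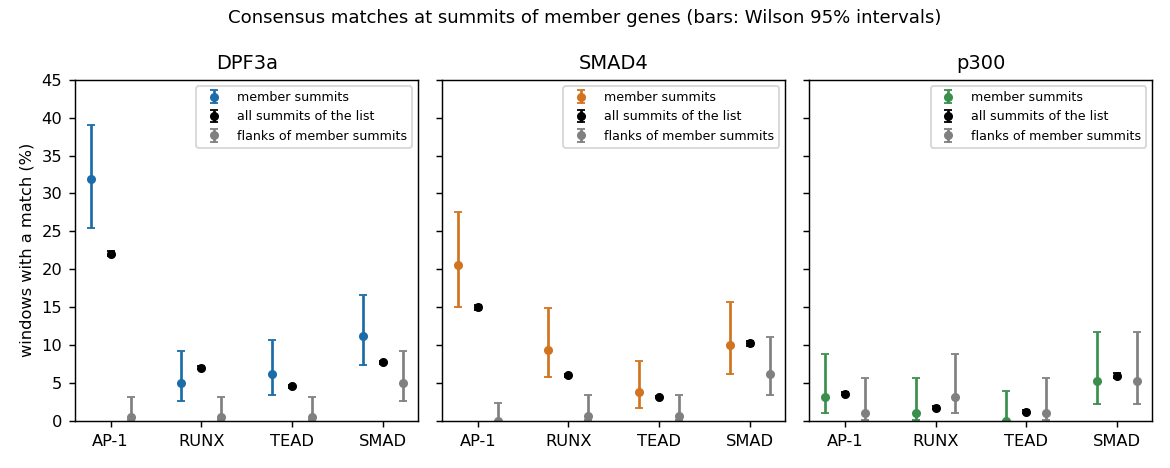
Share of windows with an exact match (y axis, percent) for each motif (x axis) at member summits, at all summits of the list and in flanks of member summits, with Wilson 95% intervals that cover counting error only. The AP-1 share of member DPF3a summits, 31.8%, stands above the 22% of the list, and the p300 shares of AP-1 are 3.16% and 3.61%.

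The genes of proteins that work with these receptors inside the cell were counted by the same rule. Of 22 adaptor genes of focal adhesions, 19 had a DPF3a peak, 21 a SMAD4 peak and 15 a p300 peak, and 9 had a site of all factors. Over all protein-coding genes these shares were 65.8%, 72.3%, 51.6% and 29.9%, and the median length of the adaptor genes was 47.5 kb. TLN2, a talin, had 26, 20 and 6 peaks, TNS3, a tensin, had 16, 22 and 6 with 4 sites of all factors, and LIMS1, which links integrins to ILK, had 13, 8 and 6. PTK2, the focal adhesion kinase gene, had 10 DPF3a, 11 SMAD4 and 14 p300 peaks and no site of all factors. Of 14 catenin, nectin and other adherens junction genes, all had a DPF3a peak, 13 a SMAD4 peak and 12 a p300 peak. Their median length was 125 kb, and of all genes of 50 to 200 kb 83.7%, 86.2% and 70% had such peaks. No test was made of these counts, and nothing particular to the lists is read from them. CTNNA1, the alpha-catenin gene, had 11, 8 and 2, and CTNNB1, the beta-catenin gene, 2, 2 and 3 with a site of all factors. Among the 7 desmosomal cadherins, which form a separate type of junction, 4 had a DPF3a peak, 5 a SMAD4 peak and 1 a p300 peak, and DSG2 held the only site of all factors. The per 100 kb medians of DPF3a were 3.93 for the adaptors, 2.94 for the adherens junction genes and 1.71 for the desmosomal cadherins, beside 2.25 over all protein-coding genes.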

How the data were processed

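The authors trimmed adapters with cutadapt, mapped them to hg38 with Bowtie2 2.3.5.1, removed reads of mapping quality under 30, mitochondrial reads and duplicates (Picard), and called peaks with MACS2 2.2.5. The deposited score is 10 times the −log10 q, and the authors kept scores over 50. The deposited fold enrichment is a ratio of summit pileup to local background, and the deposited −log10 p and −log10 q were used as they stand. How replicates were combined is not given in the sources used here. Fold enrichment and −log10 p together gave back whole reads at the summit, with an error of at most 8.6e-04 in the −log10 p. Library depth is not given with the lists.

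Here, summits were assigned with GENCODE 44 on hg38 (Python 3.11.15, pandas 2.3.3, pysam 0.24.0). A summit within 5000 bp of several genes was counted at each. Touching means 1 bp of overlap. Intervals are Wilson intervals. The code was tested on simulated data. Alternatives were scores over 100 and 200, other overlap rules, upstream limits and motif windows, and leaving out genes of chromosome 5. Named with values were members with a site of all factors, the 3 genes per subfamily with the most DPF3a peaks, those with the 3 highest fold enrichments per list, the 5 genes of chromosome 5, widely studied members and those without a peak. Other members were named after their values were seen. The members and lists were chosen with earlier results of these data known.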

Additional observations from a re-analysis of the deposited data

How the results depend on the processing

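No paired analysis was possible because every factor has a common list for its replicates, and for the same reason no replicate could be left out. Of 84 recomputed values, 61 moved by less than counting error or 1.5 times and 23 by more. With scores over 100, members with a p300 peak fell to 12 (integrins 4, cadherins 8) and their p300 peaks to 13, both p300 medians per 100 kb were 0, members with a site of all factors numbered 8, the share of p300 peaks touching no list was 7.69%, the AP-1 shares were 39.0% for DPF3a and 15.4% for p300, and the integrin DPF3a median was 2.09 per 100 kb. With scores over 200, the lists kept 81 DPF3a, 73 SMAD4 and 4 p300 peaks, the last at 4 genes. Without the 5 cadherin genes on chromosome 5, the cadherin medians per 100 kb were 2.08, 1.60 and 0.245 for DPF3a, SMAD4 and p300. With 1 bp of overlap, 68.2% of DPF3a peaks were shared with SMAD4 and 75.6% the other way. With 100 bp to either side of the summit, the AP-1 shares were 43.6%, 36.2% and 10.5%. Restricting these shares to summits far from every transcript start, an alternative chosen after seeing the data, gave 31.9%, 24.8% and 4.05%. Library depth is not given with the lists, and its part in the p300 counts was not tested. By −log10 q in place of fold enrichment, the strongest peak was the same in 19 of 29 genes with several DPF3a peaks, 23 of 28 for SMAD4 and 14 of 16 for p300.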
